A study of Oryza sativa with 8 samples.

Results

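The gene models described here are the 200 with the highest mean CPM over 8 libraries of booting-stage rice stem, out of 55986 gene models in all. CPM is the fragment count of a gene model divided by the total of its library and multiplied by 1000000. The members were chosen from these values, so their high level is the rule and not a result. What can be read from them is how much of each library they take, how they vary among themselves and how the lines differ.

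SM92 is described in the labels as tolerant of the yellow stem borer, and SM as susceptible to it. Yellow stem borer larvae bore into rice stems and feed inside them. Each line had 4 samples from field-grown plants at the booting stage, when the panicle is still inside the leaf sheath. According to the labels 2 of the 4 came from tillers on which larvae had been placed 72 hours earlier, taken as short cuts of stem at the feeding zone, and 2 from uninfested plants. No label ties a count column to infested or uninfested plants, so each column is known only by its line and both conditions are mixed within each line. Libraries are numbered 1 to 4 in the order of the columns of their table, and the number carries no other meaning.

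As background, a small part of the genes usually supplies a large part of the messenger RNA of a plant organ, and products of photosynthesis, protein synthesis, cell wall and stress genes are often among them. The level of such a transcript reflects both its synthesis and its stability. When RNA is depleted of ribosomal RNA rather than selected for poly(A) tails, other abundant RNAs read from a gene model are counted too. The identifiers are locus names of release 7 of the MSU rice annotation. Of the 55986 identifiers, 0 matched the RefSeq gene table used here, so no gene name or function is given, and the labelled tissue could not be checked against marker genes. Because the tissue is bulk stem, fewer cells of a type and less RNA per cell cannot be told apart in any difference given here.

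Library totals lay between 50540724 and 57603629 counted fragments. Some libraries resembled each other far more than others. A chi-square statistic per gene model, about 1 where only sampling separates a pair of libraries, was 1.62 to 3.12 for 3 pairs, namely SM92 libraries 1 and 2, SM92 libraries 3 and 4, and SM libraries 3 and 4. It was 95.7 to 342 for the other 9 pairs within a line and 308 to 562 for the 16 pairs of different lines. Over the abundant gene models alone the 3 close pairs gave 10.3 to 40.9, which is above sampling noise but does not show that they came from separate plants. They were kept as separate libraries because the labels list 4 samples per line. Whether they share plants or RNA was not tested, and nothing in the labels says that any library came from separate plants. If they do share RNA, n = 4 per line is too high and the p-values with 8 libraries are too small. The tests of single gene models and the counts of calls are therefore also given with the close pairs summed, which leaves 2 samples of SM92 and 3 of SM.

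The abundant gene models made up 0.357% of the annotation and took 21.9% to 27.8% of the counted fragments of a library. Their share was 25.8%, 25.9%, 27.8% and 27.7% in SM92 libraries 1 to 4, against 22.7%, 22.4%, 22.0% and 21.9% in SM libraries 1 to 4. All 4 SM92 libraries lay above all 4 SM libraries. The mean was 26.8% ± 1.11 in SM92 and 22.2% ± 0.377 in SM (SD, n = 4 libraries each), a difference of 4.55 percentage points. With each close pair counted as 1 sample it was 26.8% ± 1.36 in SM92 (SD, n = 2) and 22.3% ± 0.386 in SM (SD, n = 3). The 95% Wilson interval of a library's share was at most 0.0247 points wide, and it covers counting error only. The share carries no test, because the gene models were chosen by these values.

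**Figure D1:**
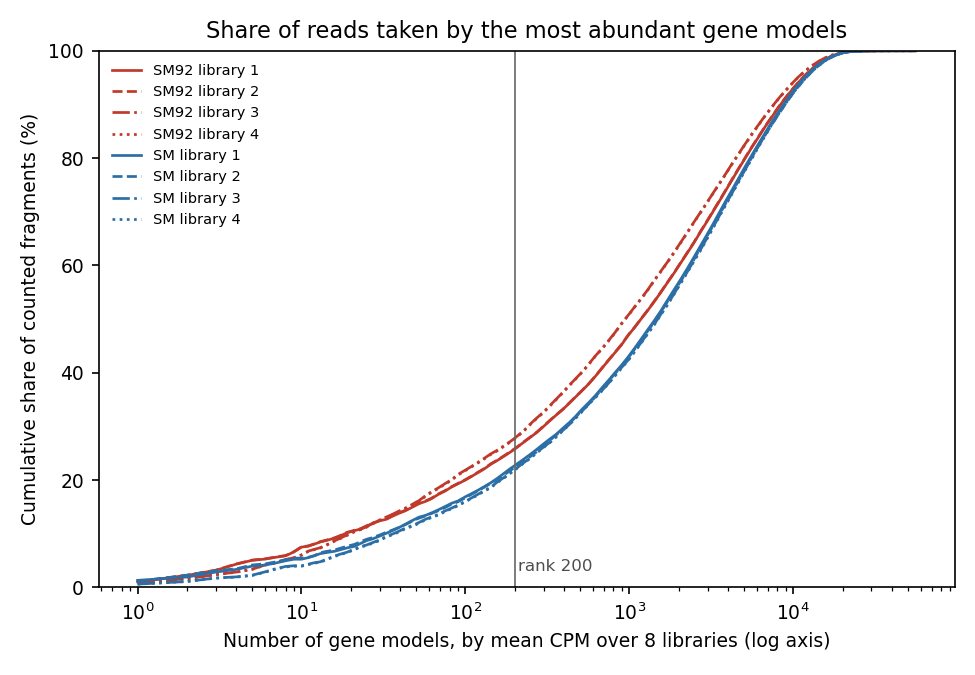
Cumulative share of counted fragments (percent, y axis) against the number of gene models taken in order of mean CPM (log x axis), one line per library. At rank 200 the 4 SM92 libraries stand at 25.8% to 27.8% and the 4 SM libraries at 21.9% to 22.7%, and close pairs of libraries lie on top of each other.

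The difference in share came mostly from the first 100 ranks. Ranks 1 to 10 took 6.01% to 7.57% in SM92 libraries and 3.95% to 5.46% in SM libraries. Ranks 11 to 50 took 7.81% to 9.81% in SM92 libraries and 7.23% to 7.79% in SM libraries. Ranks 51 to 100 took 4.68% to 5.98% in SM92 libraries and 4.03% to 4.25% in SM libraries. In these 3 bands the lines did not overlap. The gap was narrow in ranks 11 to 50, where SM92 libraries 1 and 2 lay barely above the highest SM library. In ranks 101 to 200 the shares overlapped, at 5.77% to 5.94% in SM92 libraries and 5.66% to 5.92% in SM libraries. From there to rank 1000 SM92 was again higher without overlap, at 21.4% to 23.2% in SM92 libraries and 20.5% to 20.7% in SM libraries. In ranks 1001 to 5000 the order of the lines was turned round, at 31.3% to 32.4% in SM92 libraries and 34.5% to 34.8% in SM libraries. Beyond rank 5000 SM92 was also lower, with 17.7% to 20.4% in SM92 libraries and 22.0% to 22.7% in SM libraries.

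Reads were concentrated on fewer gene models in SM92 libraries. Between 886 and 1091 gene models were enough for 50% of the fragments of an SM92 library, against 1328 to 1359 for an SM library. When each library was given its own 200 most abundant gene models, they took 27.0% to 29.1% in SM92 libraries and 23.1% to 23.7% in SM libraries. Of the 200 members, 132 had a higher mean CPM in SM92 and together added 6.80 points to its share, and 68 had a lower one and changed it by -2.25 points. The largest single contribution was 0.710 points from LOC_Os08g35420. Without it the difference in share was 3.84 points.

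The level of the members covered a wide range. Mean CPM ran from 9446 at rank 1 to 3558 at rank 10, 1361 at rank 50, 744 at rank 100 and 488 at rank 200. Around the limit the values were nearly level. LOC_Os04g17100 and LOC_Os01g68320, the last inside it, averaged 488.1 and 487.9 CPM, and LOC_Os01g15640 and LOC_Os11g07020, the next in order, averaged 486.7 and 485.7 CPM and were left out. LOC_Os04g17100 had 714, 703, 231 and 239 CPM in SM92 libraries 1 to 4, against 619, 844, 277 and 277 CPM in SM libraries 1 to 4, so its level swung widely between libraries of one line. Of the 200, 197 had at least 100 CPM in every library. The other 3 were LOC_Os08g35420, LOC_Os01g68300 and LOC_Os02g55890, all described further on.

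The most abundant gene model was LOC_Os11g47760 (chromosome 11, 28804248 to 28808550, plus strand, MSU release 7 coordinates as for all positions here). It had 10554, 10435, 8888 and 8816 CPM in SM92 libraries 1 to 4, against 13203, 11387, 6151 and 6134 CPM in SM libraries 1 to 4. It ranked 2 in SM92 and 1 in SM, and the lines overlapped. LOC_Os12g34108 (chromosome 12, 20659585 to 20660961, minus strand) had 11926, 12188, 7474 and 7367 CPM in SM92 libraries 1 to 4, against 6211, 11389.7, 4919.5 and 4883 CPM in SM libraries 1 to 4. Here the SM libraries spread widely, and library 2 lay among the SM92 values. LOC_Os09g08910 (chromosome 9, 4725507 to 4730885, plus strand) had 9359, 9539, 7529 and 7503 CPM in SM92 libraries 1 to 4, against 9262, 8340.2, 6572 and 6256 CPM in SM libraries 1 to 4. Its libraries were the most alike of these 3, with a coefficient of variation (CV, SD over mean) of 15.9% over the 8 libraries.

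LOC_Os01g74300 (chromosome 1, 43046955 to 43047961, plus strand) had 11540.0, 11650.1, 4783 and 4771 CPM in SM92 libraries 1 to 4, against 4899.9, 3636, 2000.4 and 1992 CPM in SM libraries 1 to 4. In both lines its highest library was more than 2-fold above its lowest. LOC_Os11g43900 (chromosome 11, 26510871 to 26513134, minus strand) had 7121, 7134, 5225 and 5112 CPM in SM92 libraries 1 to 4, against 6090.1, 7026, 3103 and 3025 CPM in SM libraries 1 to 4, and the lines overlapped. LOC_Os11g04409 (chromosome 11, 1835451 to 1837930, minus strand) showed the largest spread within a line among the first 10. It had 2352, 2351, 8103 and 8013 CPM in SM92 libraries 1 to 4, against 2089, 2174, 6363 and 6132 CPM in SM libraries 1 to 4. Libraries 3 and 4 were high and libraries 1 and 2 low in both tables, and the line accounted for 2.28% of the variance of its log2(CPM + 1) values.

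LOC_Os02g06640 (chromosome 2, 3340311 to 3343062, minus strand) had 3473, 3492, 4265 and 4189.7 CPM in SM92 libraries 1 to 4, against 3959, 3792, 6001 and 5909 CPM in SM libraries 1 to 4. It is the only one of the first 10 with a higher mean in SM. LOC_Os05g41550 (chromosome 5, 24324455 to 24329940, minus strand) had 2613, 2669, 5691 and 5641 CPM in SM92 libraries 1 to 4, against 3957, 3936, 3964 and 3835 CPM in SM libraries 1 to 4. The SM libraries were level and the SM92 libraries lay on both sides of them. LOC_Os05g02070 (chromosome 5, 605760 to 606871, plus strand) had 7279, 7257, 3442 and 3470.5 CPM in SM92 libraries 1 to 4, against 2946, 2949, 1328 and 1359 CPM in SM libraries 1 to 4, and every SM92 library lay above every SM library. LOC_Os08g35420, at rank 10, is described with the differences between lines.

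**Figure D2:**
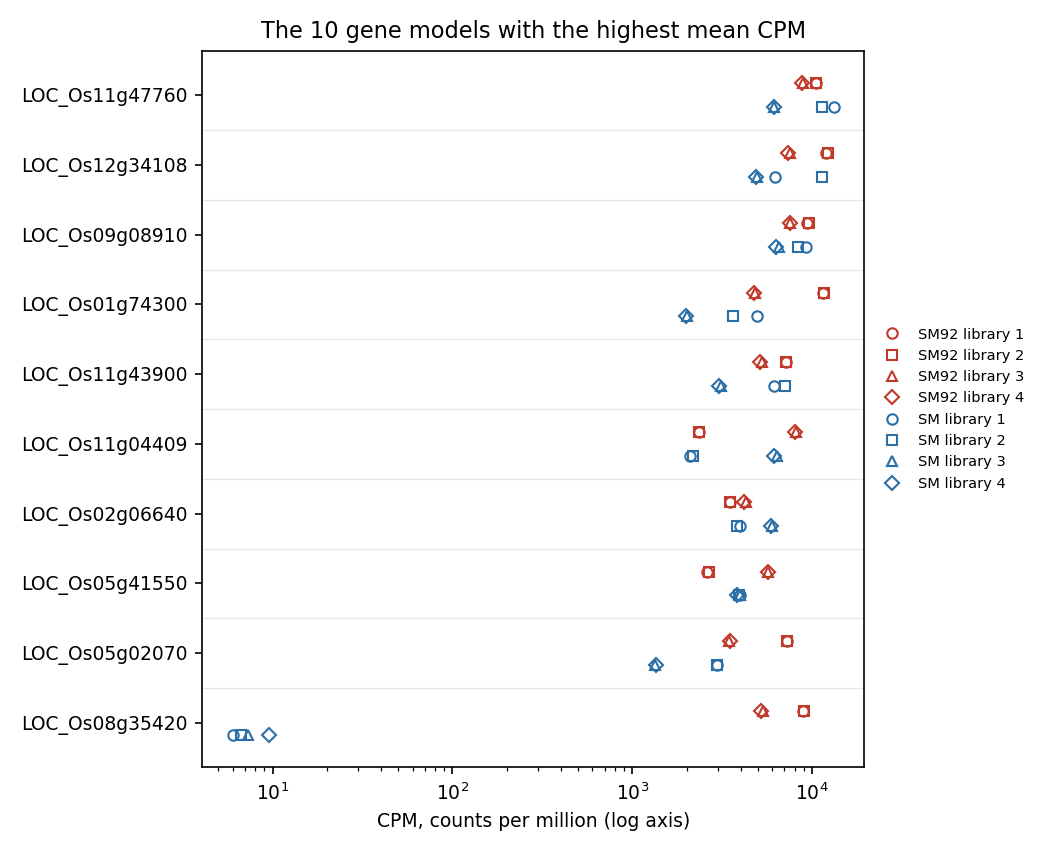
CPM in each library (log x axis) of the 10 gene models with the highest mean CPM, listed from rank 1 at the top, with SM92 libraries in red above SM libraries in blue. Most SM92 and SM points overlap, and LOC_Os08g35420 stands apart at 5190.5 to 8956 CPM in SM92 libraries and 5.99 to 9.58 CPM in SM libraries.

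CPM is not divided by length and so favours long gene models. Levels were therefore also taken per kilobase of gene span, the stretch over which the authors counted fragments. On that scale LOC_Os12g34108 came first with 6024 CPM per kb and LOC_Os01g74300 second with 5619.7 CPM per kb, while LOC_Os11g47760, first by CPM, came to rank 8 with 2195 CPM per kb. Of the 200 members, 122 were also among the first 200 per kilobase. LOC_Os09g07900, with the longest span of the 200, was furthest down, at rank 1925 per kilobase. Introns belong to the span, so a value per kilobase understates genes whose introns are spliced out.

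The members had a median span of 3523 bases, with quartiles of 2263 and 5330 and a range from 576 to 19534 bases. All 55986 gene models had a median of 2393 bases, and the 17476 with over 1 CPM in every library had one of 3697.5 bases. The members were thus longer than the annotation as a whole and close in length to expressed gene models. They lay on the plus strand in 100 cases and on the minus strand in 100. Chromosome 1 held 41 and chromosome 3 held 33, which is 0.628% and 0.593% of their gene models. Chromosome 10 held 3, or 0.0855% of its gene models. None lay on ChrUn or ChrSy.

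Some members were neighbours. In 8 places at least 2 members lay within 20 kb of each other, and 19 members belonged to such a place. The largest group lay on chromosome 12 between 20503266 and 20541110 and held 5 members in 37845 bases, namely LOC_Os12g33958, LOC_Os12g33962, LOC_Os12g34012, LOC_Os12g34014 and LOC_Os12g34018. Together they averaged 8288 CPM in SM92 and 6155 CPM in SM. Of the 5, LOC_Os12g34012 and LOC_Os12g34014 were higher in every SM92 library than in any SM library, and the lines overlapped in the other 3. LOC_Os12g33958 had 3849, 3908, 3392 and 3347 CPM in SM92 libraries 1 to 4, against 3495, 3228, 2861 and 2749 CPM in SM libraries 1 to 4. LOC_Os12g34014 had 1599.6, 1642, 1376 and 1367 CPM in SM92 libraries 1 to 4, against 555, 571, 503 and 484 CPM in SM libraries 1 to 4. On chromosome 2, LOC_Os02g41630 and LOC_Os02g41650 lay on the same strand and took 0.590% in SM92 and 0.396% in SM. LOC_Os12g42876 and LOC_Os12g42884, also on one strand of chromosome 12, took 0.0506% in SM92 and 0.169% in SM, and in both every SM92 library lay below every SM library.

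A gene model on the opposite strand overlapped 9 of the 200, or 4.5%. The count used the strand, so reads of such a partner were kept apart as far as the library preparation marks strand. Another gene model on the same strand overlapped only LOC_Os12g34012 among the members.

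The members differed widely in how steady they were. The CV over the 8 libraries ran from 5.66% to 114%, with a median of 29.6%, and 50 members had a CV under 20%. The median was 27.0% over the 17476 gene models with over 1 CPM in every library, so abundant gene models were about as variable as expressed gene models in general. The steadiest was LOC_Os01g68320 (chromosome 1, 39688260 to 39693159, minus strand), with 478, 477, 508 and 504 CPM in SM92 libraries 1 to 4, against 435, 475, 524 and 502 CPM in SM libraries 1 to 4. The next was LOC_Os09g07300 (chromosome 9, 3590118 to 3607830, minus strand), with 749, 772, 779 and 768 CPM in SM92 libraries 1 to 4, against 884, 733, 761 and 744 CPM in SM libraries 1 to 4. In both, the libraries of the lines overlapped.

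Within a line, the highest library was at least 2-fold above the lowest for 35 members in SM92 and for 57 in SM, on the log2(CPM + 1) scale. For 28 members this held in both lines, and for 136 in neither. The median range was 0.43 in SM92 and 0.66 in SM (log2). The widest was that of LOC_Os02g55890 (chromosome 2, 34210400 to 34215008, minus strand), with 40.6, 36.9, 704 and 696 CPM in SM92 libraries 1 to 4, against 157, 131, 1393 and 1410.3 CPM in SM libraries 1 to 4. LOC_Os05g39310 (chromosome 5, 23058937 to 23061264, plus strand) was second, with 306, 295, 2107 and 2128 CPM in SM92 libraries 1 to 4, against 233, 301, 1995 and 2123 CPM in SM libraries 1 to 4. In both gene models libraries 1 and 2 were low and libraries 3 and 4 high in each table, and the lines overlapped. Among the 28 members with a wide range in both lines, the highest SM92 value fell in library 1, 2, 3 and 4 for 5, 3, 15 and 5 members, and the highest SM value in library 1, 2, 3 and 4 for 4, 4, 11 and 9.

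**Figure D3:**
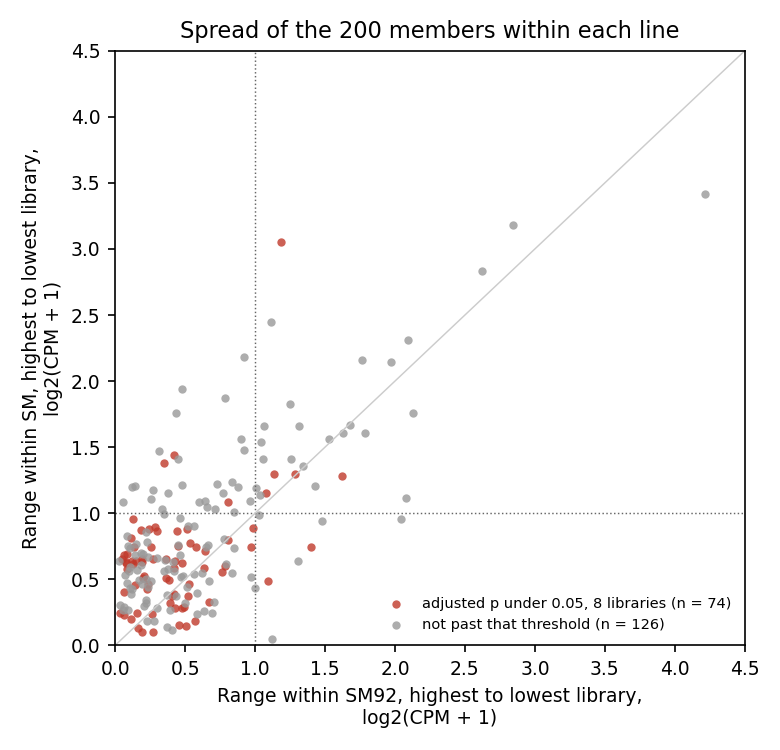
Range within SM92 (x axis) and within SM (y axis) of each of the 200 members, as the difference in log2(CPM + 1) between the highest and the lowest library, with dotted lines at a 2-fold range and the diagonal in grey. Most members lie under 2-fold in both lines (136), and 28 lie beyond it in both.

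The share of a member's variance in log2(CPM + 1) that lay between the lines had a median of 34.1%, against 39.3% over the 17476 gene models with over 1 CPM in every library. It was over 50% for 84 members. For the other 116, variation among libraries of one line, which holds any response to the larvae, was at least as large as that between lines.

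Whether a member differed between SM92 and SM was tested with edgeR's quasi-likelihood test over all 24892 gene models that passed its filter on low counts, with trimmed mean of M-values (TMM) normalization and Benjamini-Hochberg adjustment. All 200 members passed the filter. The rule used the mean over both lines, so a member can owe its place to the line in which it is high. Selection favoured a difference in such a member but did not force one. Of the 200, 163 were among the first 200 of SM92 on its own and 173 among the first 200 of SM on its own, and 136 were in both lists. The other 64 were in the list of one line only, so their differences between lines are given as a description and with no p-value. Their calls are counted below, but they are not read as support for a difference. Every library had 88 gene models in common among its own first 200, all of them members.

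At an adjusted p below 0.05, 53 members were higher in SM92 and 21 were lower with all 8 libraries. Over all gene models tested the share called in either direction was 36.4%, against 37.0% of the members. The near match holds for this fit and includes the 64 members in a single list, of which 19 were called higher and 17 lower. With the close pairs summed, 4.5% of the members were called, against 9.41% of all gene models tested. Of the 136 members in both lists, 34 were called higher, 4 lower and 98 not. Of the 27 in the list of SM92 only, 19 were called higher and 0 lower, and of the 37 in the list of SM only, 0 were called higher and 17 lower. In the higher direction the background was 16.7% and the members' share 26.5%, and in the lower direction the background was 19.7% and the members' share 10.5%. Because the values that chose the members also enter this comparison, nothing is read from the split by direction. The median log2 fold change of the members was 0.39, against 0.00287 over all gene models tested, and 153 members had a positive one and 47 a negative one. With library totals in place of TMM the median of the members was 0.20 and that of all gene models -0.16 (log2), and 43 members were called higher and 28 lower, against a background of 11.9% and 25.2% (37.1% in either direction). Of the called members 71.6% were higher with TMM and 60.6% with library totals, against 45.8% and 32.1% of all called gene models. These shares include the members in a single list, so nothing is read from them either.

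With the close pairs of libraries summed, 6 members were called higher and 3 lower. The background was then 4.38% higher and 5.03% lower (9.41% in either direction) over 27531 gene models tested, and the members' shares were 3.0% and 1.5%. All 9 were also among the 74 called with 8 libraries. Without a test, the 4 SM92 libraries all lay above the 4 SM libraries for 52 members and all below for 28, where 13.3% and 27.4% of all gene models tested did so.

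**Figure D4:**
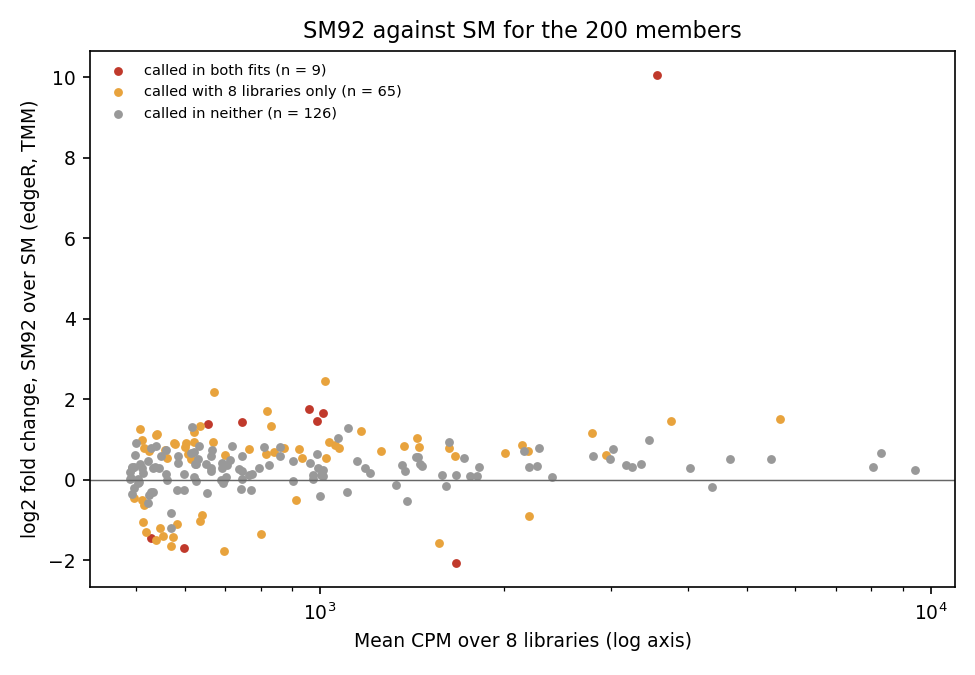
Log2 fold change of SM92 over SM (y axis, edgeR with TMM) against mean CPM (log x axis) for the 200 members. Red marks the 9 called in both fits, orange the 65 called with 8 libraries only and grey the 126 called in neither. One point, LOC_Os08g35420, lies at 10.06 and the others lie between -2.06 and 2.45.

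The largest difference was that of LOC_Os08g35420 (chromosome 8, 22324588 to 22325693, plus strand), a gene model of 1106 bases. It had 8938, 8956, 5349.8 and 5191 CPM in SM92 libraries 1 to 4, against 5.99, 6.68, 7.26 and 9.58 CPM in SM libraries 1 to 4. In fragments, the SM libraries held 321, 367, 418 and 518. It ranked 5 in SM92 and 14092 in SM, so its place among the 200 rests on SM92 alone. The log2 fold change was 10.06 ± 0.36 (SE) with 8 libraries and 10.14 ± 0.48 (SE) with the close pairs summed. The lines did not overlap.

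LOC_Os01g68300 (chromosome 1, 39682834 to 39683442, minus strand), a neighbour of the steady LOC_Os01g68320 on the same strand, came next among members whose lines did not overlap. It had 2366, 2330.1, 1038 and 1048 CPM in SM92 libraries 1 to 4, against 828, 332, 99.2 and 105 CPM in SM libraries 1 to 4. The SM libraries spread by 3.05 on the log2(CPM + 1) scale, with library 1 the highest. It ranked 36 in SM92 and 338 in SM, so it too is a member through SM92 alone. The log2 fold change was 2.45 ± 0.72 (SE) with 8 libraries. It was among the members called with 8 libraries, but not with the close pairs summed, nor without SM92 library 1 or 2 or SM library 2, 3 or 4. Because it is a member through SM92 alone, the call is no support for a difference.

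The largest differences in the lower direction were those of LOC_Os03g28330 and LOC_Os01g59150. LOC_Os03g28330 (chromosome 3, 16301277 to 16307632, minus strand) had 444, 457, 708 and 701 CPM in SM92 libraries 1 to 4, against 3172, 2807, 2542 and 2527 CPM in SM libraries 1 to 4. It ranked 167 in SM92 and 13 in SM. The log2 fold change was -2.06 ± 0.26 (SE) with an adjusted p of 0.000614 in edgeR's test, and -2.09 ± 0.39 (SE) with an adjusted p of 0.0361 with the close pairs summed. LOC_Os01g59150 (chromosome 1, 34167933 to 34171810, plus strand) had 155, 155, 411 and 405 CPM in SM92 libraries 1 to 4, against 1081, 777, 1302 and 1277 CPM in SM libraries 1 to 4. It ranked 506 in SM92 and 55 in SM, so it is a member through SM alone. Its log2 fold change was -1.77 ± 0.44 (SE) with 8 libraries, and it was not among the members called with the close pairs summed. Its call with 8 libraries is no support for a difference, because selection through SM favoured one.

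Besides LOC_Os08g35420 and LOC_Os03g28330, 7 members were called in both fits, and these were singled out after their values were seen. LOC_Os09g36600 had 1216, 1177, 1684 and 1680.3 CPM in SM92 libraries 1 to 4, against 367, 335, 602 and 618 CPM in SM libraries 1 to 4. LOC_Os01g53730 had 1336, 1349, 1472 and 1451 CPM in SM92 libraries 1 to 4, against 554, 703, 522 and 512 CPM in SM libraries 1 to 4. LOC_Os01g63690 had 970.0, 917, 1137 and 1179 CPM in SM92 libraries 1 to 4, against 489.9, 542, 343 and 388 CPM in SM libraries 1 to 4. In each of these the lowest SM92 library lay above the highest SM library. LOC_Os12g34012 and LOC_Os12g34014 are next to each other in the group on chromosome 12, on the plus strand. LOC_Os12g34012 had 897, 915, 938 and 925 CPM in SM92 libraries 1 to 4, against 473, 357, 377 and 361 CPM in SM libraries 1 to 4, and the values of LOC_Os12g34014 are given above. Their log2 fold changes were 1.40 ± 0.15 (SE) and 1.67 ± 0.12 (SE) with 8 libraries. LOC_Os05g08370 had 253, 254, 267 and 260.5 CPM in SM92 libraries 1 to 4, against 1081, 699, 1005 and 979 CPM in SM libraries 1 to 4, and LOC_Os12g42884 had 207, 213, 308 and 304 CPM in SM92 libraries 1 to 4, against 871, 786, 779 and 764 CPM in SM libraries 1 to 4. In both, every SM92 library lay below every SM library. LOC_Os01g63690 and LOC_Os12g34012 are members through SM92 alone, and LOC_Os05g08370 and LOC_Os12g42884 through SM alone. Selection favoured a difference in these members, so their calls are no support for it. The other 3 were in the lists of both lines. LOC_Os09g36600 lay near the limit of the SM list, so selection may have favoured a difference in it too. With the close pairs summed, the adjusted p in edgeR's test was 0.0185 for LOC_Os12g34014, 0.0357 for LOC_Os01g53730 and 0.0466 for LOC_Os09g36600.

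**Figure D5:**
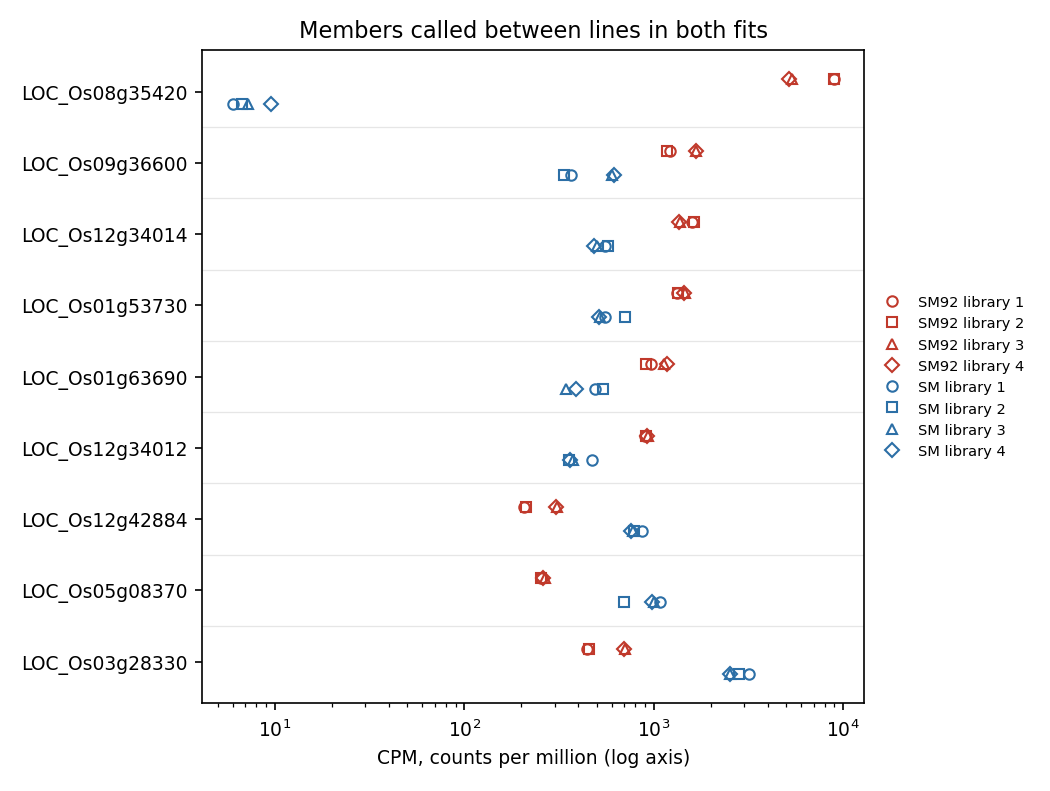
CPM in each library (log x axis) of the 9 members called between lines in both fits, ordered by log2 fold change from the highest at the top, with SM92 libraries in red above SM libraries in blue. The lines do not overlap in any of the 9, with SM92 to the right in the upper 6 and to the left in the lower 3. LOC_Os08g35420, LOC_Os01g63690, LOC_Os12g34012, LOC_Os05g08370 and LOC_Os12g42884 are members through a single line, so their calls are no support for a difference.

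Among the first 10 ranks, 3 members were called higher with 8 libraries and 0 lower. Over all gene models tested the shares were 16.7% higher and 19.7% lower, and nothing is read from counts so small. The 3 were LOC_Os08g35420, LOC_Os01g74300 and LOC_Os05g02070. LOC_Os08g35420 is a member through SM92 alone, so its call is no support for a difference. LOC_Os01g74300 averaged 8186 ± 3937 CPM in SM92 and 3132 ± 1409 CPM in SM (SD, n = 4 libraries each), with a log2 fold change of 1.52 ± 0.43 (SE) and an adjusted p of 0.0252 in edgeR's test. LOC_Os05g02070 averaged 5362 ± 2201 CPM in SM92 and 2145 ± 926 CPM in SM (SD, n = 4 libraries each), with a log2 fold change of 1.46 ± 0.39 (SE) and an adjusted p of 0.0196 in edgeR's test. With the close pairs summed their adjusted p was 0.189 and 0.171. The call for LOC_Os01g74300 was also lost without SM92 library 1 or 2 or SM library 3 or 4, with adjusted p between 0.0614 and 0.0675, and that for LOC_Os05g02070 without SM library 3 or 4, with adjusted p of 0.0515 and 0.0519 in edgeR's test. LOC_Os12g34108, not called with 8 libraries (adjusted p = 0.16), was called without SM library 2 (adjusted p = 0.0253).

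The 53 called higher with 8 libraries had a median log2 fold change of 0.89, and 20 of them were at least 2-fold. The 21 called lower had a median of -1.28, and 15 of them were at least 2-fold. The median span was 2852 bases among those called higher and 4086 bases among those called lower. Of the 53, 19 were in the list of SM92 only, and of the 21, 17 were in the list of SM only. Selection favoured a difference in these members, so nothing is read from the sizes or spans. SM92 and SM were counted in separate tables, so the line and anything else that differed between the tables cannot be told apart. How well the reads of each line align to the reference annotation was not tested.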

How the data were processed

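Strand-marked libraries of 8 stem samples were prepared after removal of ribosomal RNA, according to the labels' protocols. The deposited counts came from featureCounts 2.0.0, applied by the authors to whole genes of MSU release 7 and to fragments with both ends aligned, in one run per line, per the file headers. FastQC, Trim Galore, STAR and DESeq2 are named in the submitters' processing notes, with no version. Gene positions and spans are as deposited by the authors. The tables were joined on the gene identifier, and each column was given its line from the table that the sample descriptions name. The 200 members were ranked by mean CPM.

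Lines were compared with edgeR 4.0.16 (R 4.3.3, TMM, filterByExpr), with DESeq2 1.42.0 and limma 3.58.1 as alternatives. The edgeR fit was also run on simulated data. The simulated libraries were independent and shared a single dispersion, so they do not cover close pairs of libraries or mixed conditions within a line. Summaries used Python 3.11.15, pandas 2.3.3 and NumPy 2.4.6. Members were named by level, steadiness, closeness to the limit, largest difference between lines without overlap, and largest spread within a line. The members and lists were chosen with earlier results of these data known.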

Additional observations from a re-analysis of the deposited data

How the results depend on the processing

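No paired analysis was possible because nothing links a column to a numbered sample. The close pairs of libraries were summed as an alternative chosen after seeing the data. With them summed, calls over all gene models fell to 1206 higher and 1385 lower, and calls among the members to 6 higher and 3 lower. The summed fit had 5 samples in place of 8, and what part of the fall came from that was not tested. Leaving out each library in turn gave 3246 to 4420 higher and 4105 to 5308 lower calls over all gene models, and 38 to 55 higher and 16 to 20 lower among the members. RLE normalization, library totals, no filter on low counts, DESeq2 and limma-voom kept every such count within 1.5 times its value. The first 200 of each library's own ranking, not all of them members, took 28.1% in SM92 and 23.4% in SM, a choice that can only raise the share. The share of the members was 21.5% in SM without the most abundant gene model. Leaving out each library in turn gave 26.4% to 27.1% in SM92 and 21.9% to 22.3% in SM. Ranking per kilobase kept 122 of the 200 members, and ranking without each library in turn kept 189 to 194. For the 18 members named by the rule, each compared under every alternative other than no filter, the side of the threshold stayed the same in 218 comparisons, and the call was lost in 15 and gained in 1. No called value changed sign. With at least 50540724 fragments per library, counting error was small beside the spread between libraries for the members.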
